A study of Sus scrofa with 6 samples.

Results

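The genes described here encode sarcomeric myosin, the motor of the muscle thick filament. The set was 10 genes given by symbol, the heavy chains MYH3, MYH7, MYH8 and MYH13 and the light chains MYL1, MYL2, MYL3, MYL4, MYL5 and MYLPF, and 8 of them were found among the 28266 rows of the deposited table. MYLPF was found under its current symbol MYL11, and MYH7 and MYL2 were not analysed here. They were measured by RNA-seq in cultured porcine satellite cells (PSCs), which renew muscle fibres by fusing with each other, in 2 groups of 3 libraries, NC24h and NC36h (replicates 4, 5 and 6 of either group). The cells of both groups came from limb muscle of 3-day-old male Yorkshire pigs and were pre-plated to lower the share of fibroblasts. Both groups received negative control (NC) siRNA before the medium was changed to induce differentiation. The groups thus differ by the time in that medium and, together with it, by the time since the siRNA was given. The labels give 24 h for NC24h. For NC36h they give 48 h, whereas the series title and the study's text give 36 h, which is used here. The siRNA is not in the labels, and libraries titled N were taken for the NC groups of the study. The number of pigs behind the replicates is not given in the sources used here, so the p-values measure the spread between these libraries, which may be technical.

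A myosin molecule is built of a pair of heavy chains, each with a motor head, and each head carries an essential and a regulatory light chain that stiffen the lever arm and tune contraction. Every chain exists in isoforms from separate genes. MYH3 encodes the embryonic heavy chain, MYH8 the perinatal one, MYH7 the slow one, shared with heart, and MYH13 an extraocular one. MYL1 encodes the fast essential light chain, MYL3 the slow and ventricular one and MYL4 the embryonic and atrial one. MYLPF encodes the fast regulatory light chain, MYL2 the slow and ventricular one, and MYL5 is a further regulatory light chain of lower abundance. Developing muscle switches between these genes, and differentiating satellite cells are known to express the embryonic set before adult isoforms.

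Values are given as FPKM, fragments per kilobase of gene length scaled to the counted fragments of the library, as the authors deposited them. Levels of different genes are set beside each other per length of their gene models, so these comparisons depend on those models. The whole number of fragments behind each FPKM was recovered from its steps. The 6 libraries held between 16248619 and 21721227 recovered fragments. Changes were tested with limma on log2(FPKM + 1) in the 14060 genes whose FPKM averaged 1 or more, with Benjamini-Hochberg adjustment across them and a threshold of 0.05. Of those genes, 50.9% were called, 16.5% higher and 34.4% lower at 36 h.

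The muscle identity of the cells was checked against defining markers. DES (desmin), MYOD1 and CDH15 were high, at mean FPKM of 1693, 316 and 176 in NC24h, and MYF5 stood at 84.7. In NC36h DES and CDH15 were called higher, at 3182 and 271 (limma adjusted p = 0.00202 and 0.00693). MYOD1 and MYF5 were lower, at 254 and 59.9, and were not called (limma adjusted p = 0.133 and 0.106). PAX7 and MYOG were not analysed here. The RNA extraction text of the labels names endometrium. The epithelial markers KRT8 and CLDN4 were at 0 in all 6 libraries, EPCAM averaged 0.0123 in NC24h and was at 0 in NC36h, and KRT18 averaged 0.0861 in NC24h and 0.0335 in NC36h. CDH1 (E-cadherin) was the exception among the 5 epithelial markers, with a rise from 0.318 ± 0.183 to 3.63 ± 1.12 FPKM (SD, n = 3 each, limma adjusted p = 0.00155). The fibroblast markers had summed FPKM between 928 and 999 at 24 h and between 823 and 1029 at 36 h. COL1A2 was lower and COL3A1 higher at 36 h by limma, with means of 693 and 241 in NC24h and 450 and 443 in NC36h. DCN and LUM, at 18.8 and 5.51 in NC24h, were lower by limma, at 6.12 and 1.83 in NC36h. PDGFRA was too low to be tested and averaged 0.486 in NC24h and 0.0859 in NC36h. The smooth muscle markers summed to between 1061 and 1507 and to between 1044 and 1179, with TAGLN lower, and the endothelial markers summed to at most 1.67 in any library. The markers of differentiated muscle (MYMK, ACTA1 and TNNC1) were all higher at 36 h and summed to between 1099 and 3605 at 24 h and between 9468 and 11016 at 36 h. The part of these marker changes in the results was not tested. Of the 2 cardiac markers with a row, NPPB was at 0 in 5 libraries and averaged 0.0304 FPKM in NC24h, and MYH6, itself a myosin heavy chain, rose from 11.6 ± 6.91 to 91.4 ± 4.21 FPKM (SD, n = 3 each, limma adjusted p = 0.00250).

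All 7 members that could be tested rose from NC24h to NC36h, and MYL3 was detected only at 36 h. The tested members' log2 changes ran from 1.70 for MYL1 to 3.16 for MYL5 with a median of 2.38, where the median over all genes tested was -0.16. The count of 7 of 7 stands beside the 16.5% of all genes tested that were called higher. In each of the 7 genes the 3 NC36h libraries lay above the 3 NC24h libraries, as they did in 21.0% of all genes tested, while in 42.6% they lay below. A log2 change of at least 2, which 0.669% of all genes tested reached, was found in MYH3, MYH13, MYL4, MYLPF and MYL5. Without NC24h replicate 6 it was found in MYL4 and MYL5 and in 0.356% of all genes tested. MYH8 also reached it with a pseudocount of 0.1 (2.43) and with voom on the recovered fragments (2.53). In RNA from whole cultures, more differentiated cells and more myosin RNA per cell cannot be told apart.

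**Figure D1:**
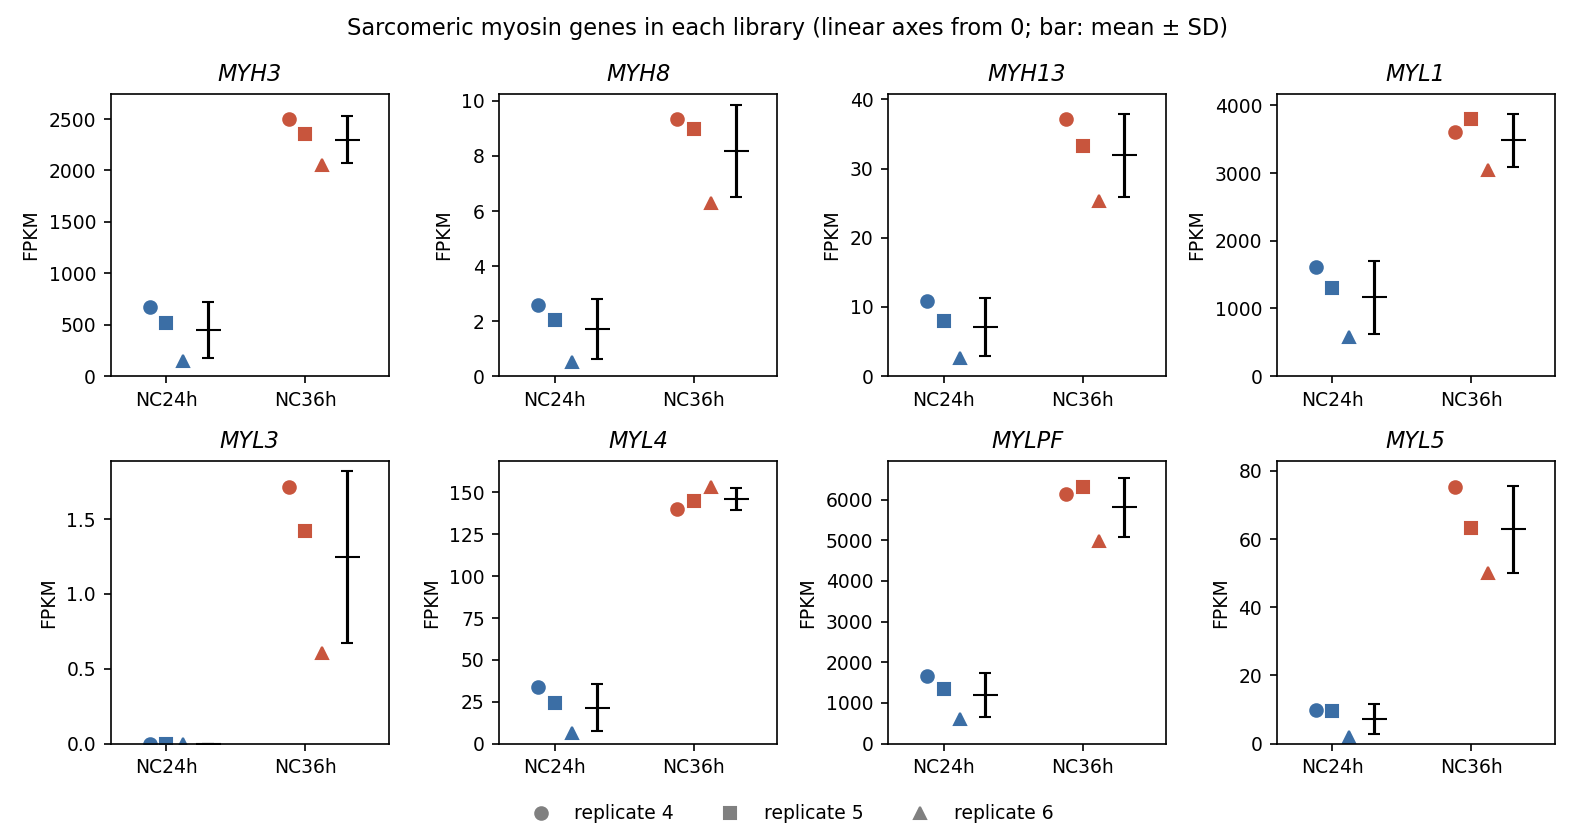
FPKM (linear axes from 0) of the 8 myosin genes with a row, in NC24h (blue) and NC36h (red), one point per library and replicate 4, 5 or 6 shown by its shape, with the mean and SD beside the points. The NC36h points lie above the NC24h points in every panel, and NC24h replicate 6 is the lowest in every panel except that of MYL3, where all 3 NC24h libraries are at 0.

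NC24h replicate 6 stood apart from replicates 4 and 5. It was the lowest library of its group in all 7 tested members, while it was lowest in 34.0% and highest in 50.5% of all genes tested. The highest NC24h library exceeded the lowest by 2.72-fold for MYLPF and 2.81-fold for MYL1, and by 4.16-fold to 5.26-fold for MYH3, MYH8, MYH13, MYL4 and MYL5. In NC36h the same span was between 1.09-fold for MYL4 and 1.51-fold for MYL5 among the tested members. There too replicate 6 was the lowest library for MYH3, MYH8, MYH13, MYL1, MYLPF and MYL5, while it was the highest for MYL4. The share of all genes with NC36h replicate 6 lowest was not computed. Over all genes tested the median span was 1.23-fold in NC24h and 1.17-fold in NC36h. Without NC24h replicate 6 all 7 members were still called higher by limma, with smaller changes (median 1.95), where 17.4% of all genes tested were called higher.

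Besides MYH7, the heavy chains MYH1, MYH2 and MYH4 were not analysed here. Among MYH3, MYH8 and MYH13, the embryonic gene MYH3 (ENSSSCG00000018007) was the main one. It had an FPKM of 677, 517 and 151 in NC24h replicates 4, 5 and 6 and of 2499, 2350.4 and 2052 in NC36h. The groups did not overlap, and 133683 fragments at 24 h and 837847 at 36 h lay behind these values. The mean rose from 448 ± 269.5 to 2300.4 ± 228 (SD, n = 3 each), a 5.13-fold difference of means. On the log2 scale this was 2.61 ± 0.52 (standard error, limma adjusted p = 0.00677), and the difference was 1.95 without NC24h replicate 6 (limma adjusted p = 0.000434). In rank among all 28266 genes by mean FPKM, MYH3 moved from 185 to 23.

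The perinatal gene MYH8 (ENSSSCG00000018005) was low at both times. Its FPKM was 2.59, 2.03 and 0.509 in NC24h and 9.34, 8.97 and 6.28 in NC36h, from 377 and 2223 fragments per group. All NC36h libraries were above all NC24h libraries, and the change on the log2 scale was 1.84 ± 0.33 (standard error, limma adjusted p = 0.00470). At this level the added 1 makes the change look smaller than the 4.79-fold difference of means.

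MYH13 (ENSSSCG00000024416), named for the extraocular heavy chain, was above MYH8 in all 6 libraries. Its FPKM was 10.8, 7.97 and 2.59 in NC24h and 37.1, 33.3 and 25.3 in NC36h. The groups did not overlap, and the change on the log2 scale was 2.17 ± 0.42 (standard error, limma adjusted p = 0.00627) on 2066 and 11362 fragments per group.

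The proportions of MYH3, MYH8 and MYH13 to each other spanned at most 1.39-fold over the 6 libraries. MYH3 made up 98.1% ± 0.0581 of the summed FPKM of the 3 heavy chains in NC24h and 98.3% ± 0.164 in NC36h (SD, n = 3 each). This sum leaves out MYH6 and the heavy chains that were not analysed here. MYH8 stood at 0.382%, 0.393% and 0.337% of the FPKM of MYH3 in NC24h replicates 4, 5 and 6 and at 0.374%, 0.382% and 0.306% in NC36h, so that the groups overlapped. This ratio spanned 1.29-fold over the 6 libraries (log2 difference without a pseudocount -0.07, two-sided exact permutation p = 0.5). MYH13 stood at 1.59%, 1.54% and 1.72% of MYH3 in NC24h and at 1.49%, 1.41% and 1.23% in NC36h, where the groups did not overlap. Its log2 difference was -0.23 without a pseudocount and -0.44 with a pseudocount of 1 (for the former, exact permutation p = 0.1, the smallest that 3 against 3 libraries allow, and 0.133 after adjustment over the 8 pairs compared). The sarcomeric heavy chain genes have long stretches of near-identical coding sequence, and the handling of fragments that fit several genes is not given in the sources used here, so the levels of MYH8 and MYH13 beside the far higher MYH3 are uncertain.

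The gene models behind these values differ in length. The length that the FPKM values imply was 5967 bases for MYH3, 5808 for MYH13 and 4413 for MYH8. The study followed myosin heavy chain RNA by qPCR under the single name MYHC, and its primer pair is printed here because it is the study's own readout of this family. No genome or transcript sequence was used here, so the pair was not assigned to any of the heavy chain genes.
MYHC forward, 22 bases: gttcagagaaaggcatcccaaa
MYHC reverse, 23 bases: gagagtgaccgacaccacaagtg

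Among the essential light chains, the fast gene MYL1 was the main one and the embryonic gene MYL4 had the larger log2 change. MYL1 (ENSSSCG00000016157) lies on chromosome 15 of the Sscrofa11.1 build, between 113038083 and 113051315. Its FPKM was 1615, 1302 and 574 in NC24h and 3606, 3795 and 3048 in NC36h. The groups did not overlap. Its log2 change of 1.70 was the smallest of the tested members (with a standard error of 0.36 and limma adjusted p = 0.00879, and 1.26 without NC24h replicate 6).

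MYL4 (ENSSSCG00000017307, chromosome 12 from 16774655 to 16792213) had an FPKM of 33.6, 24.6 and 6.38 in NC24h and of 140.4, 145 and 153 in NC36h. It was the member with the widest span among the NC24h libraries and the narrowest among the NC36h libraries. The mean rose from 21.5 ± 13.9 to 146 ± 6.61 (SD, n = 3 each), which is 6.80-fold and 2.98 ± 0.53 on the log2 scale (standard error, limma adjusted p = 0.00454, and 2.31 without NC24h replicate 6). MYL4 had rank 9 among the rises of all genes tested.

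MYL3 (ENSSSCG00000011325, chromosome 13 from 29730271 to 29735616), the slow light chain, had 0 fragments in each NC24h library and 23, 20 and 7 in NC36h replicates 4, 5 and 6. These are FPKM of 1.72, 1.42 and 0.603. Its mean FPKM over the 6 libraries was 0.623, under the minimum of 1, so it was not among the genes tested. Against the limit of 3 fragments over the NC24h group, which is an FPKM of 0.0936, the pooled MYL3 value at 36 h (1.28) was 13.7-fold higher. The limit covers counting error at 24 h only, while the 50 fragments at 36 h were taken as counted. With no filter on low values the limma adjusted p was 0.00735. MYL3 enters that fit only through its NC36h values, so this p is not used as support.

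MYL4 stood higher relative to MYL1 in each NC36h library. It was 2.08%, 1.89% and 1.11% of the FPKM of MYL1 in NC24h and 3.89%, 3.82% and 5.03% in NC36h. All NC36h libraries were above all NC24h libraries, with a log2 difference of the ratio of 1.37 without a pseudocount and 1.27 with a pseudocount of 1 (two-sided exact permutation p = 0.1 for both, the smallest possible). Relative to MYH3, MYL4 was between 4.22% and 4.96% of its FPKM in NC24h and between 5.62% and 7.48% in NC36h (log2 difference 0.46 without a pseudocount and 0.37 with a pseudocount of 1, exact permutation p = 0.1 for both). MYL1 still made up 95.9% ± 0.611 of the summed FPKM of the essential light chains in NC36h, against 98.3% ± 0.497 in NC24h (SD, n = 3 each).

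**Figure D2:**
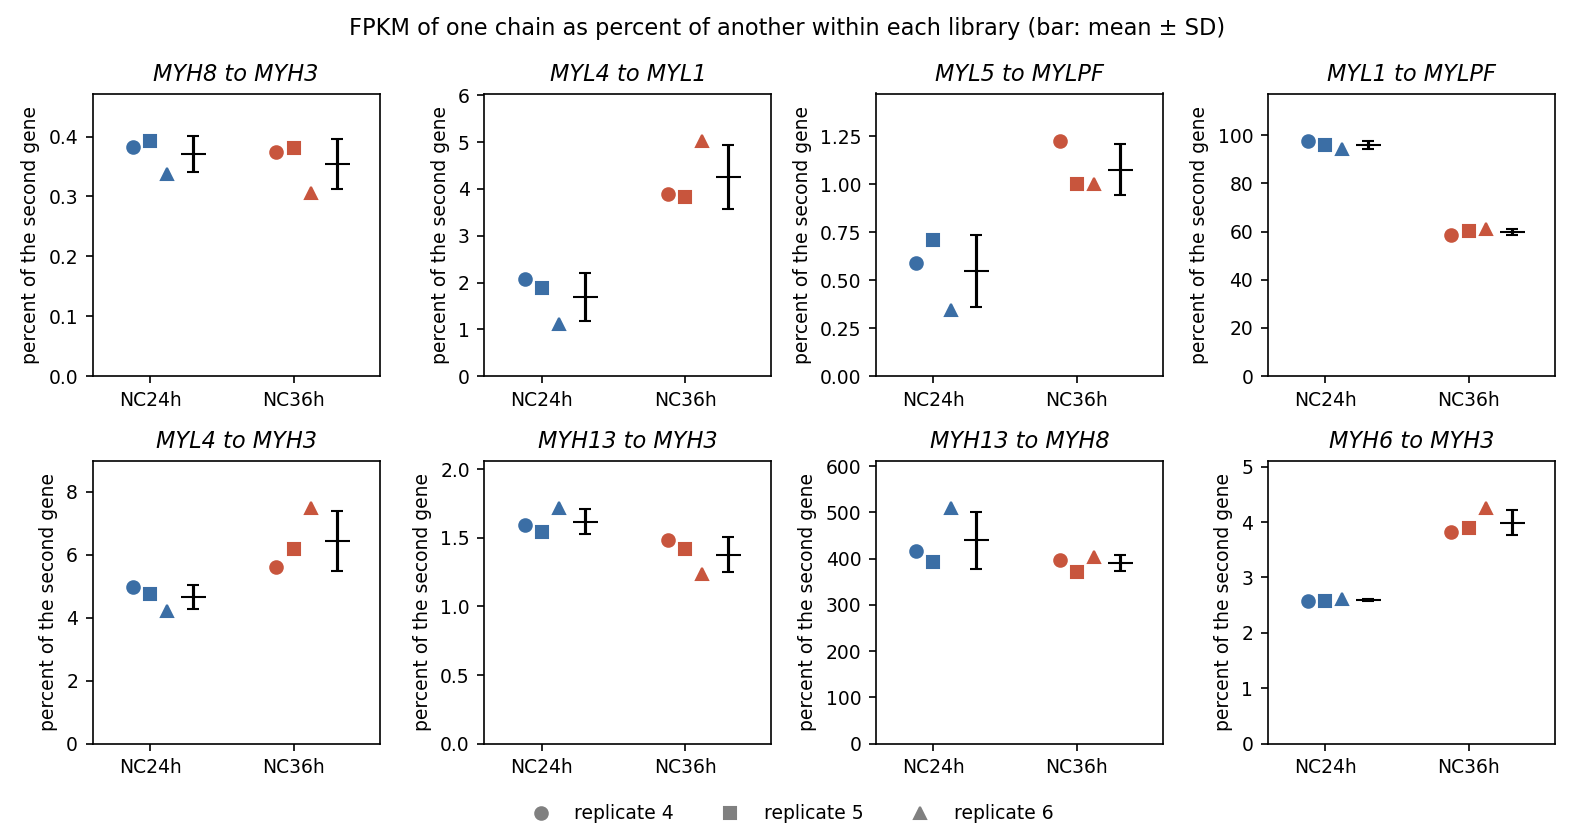
FPKM of one chain as percent of the FPKM of another within each library, for the 8 pairs compared (axes from 0, one point per library, blue NC24h and red NC36h, bars mean and SD). MYL1 to MYLPF separates the groups, between 94.5% and 97.8% against between 58.7% and 61.2%, while MYH8 to MYH3 overlaps between the groups.

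Among the regulatory light chains, the fast gene MYLPF (ENSSSCG00000007799, chromosome 3 from 17938129 to 17941071) had the highest FPKM of all members. It stood at 1651, 1354 and 607 in NC24h and at 6139, 6317 and 4983 in NC36h. The groups were far apart, with a mean of 1204 ± 538 at 24 h and 5813 ± 724 at 36 h (SD, n = 3 each). The difference on the log2 scale was 2.38 ± 0.36 (standard error, limma adjusted p = 0.00267, and 1.95 without NC24h replicate 6), and MYLPF moved from rank 60 to rank 4 by mean FPKM among all genes.

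MYL5 (ENSSSCG00000027502, chromosome 8 from 115986 to 120297) had an FPKM of 9.74, 9.59 and 2.09 in NC24h and of 75.3, 63.1 and 49.98 in NC36h. The groups did not overlap, and the 8.79-fold difference of means was the largest of the tested members. On the log2 scale it was 3.16 ± 0.48 (standard error, limma adjusted p = 0.00277, and 2.56 without NC24h replicate 6), on 186 fragments at 24 h and 2009 at 36 h.

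MYL5 stood higher relative to MYLPF in each NC36h library and was a small part of its class at both times. It stood at 0.590%, 0.708% and 0.345% of the FPKM of MYLPF in NC24h and at 1.23%, 0.999% and 1.003% in NC36h. The log2 difference of the ratio was 0.77 with a pseudocount of 1 and 1.03 without one (exact permutation p = 0.1 for both, the smallest possible).

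The balance of the main light chains differed between the times in every library. MYL1 stood at 97.8%, 96.2% and 94.5% of the FPKM of MYLPF in NC24h and at 58.7%, 60.1% and 61.2% in NC36h. The difference was -0.68 on the log2 scale, with SDs of 0.02 in NC24h and 0.03 in NC36h (exact permutation p = 0.1, the smallest possible). NC24h replicate 6, which had the lowest levels of both genes, was close to the other NC24h libraries in this ratio.

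**Figure D3:**
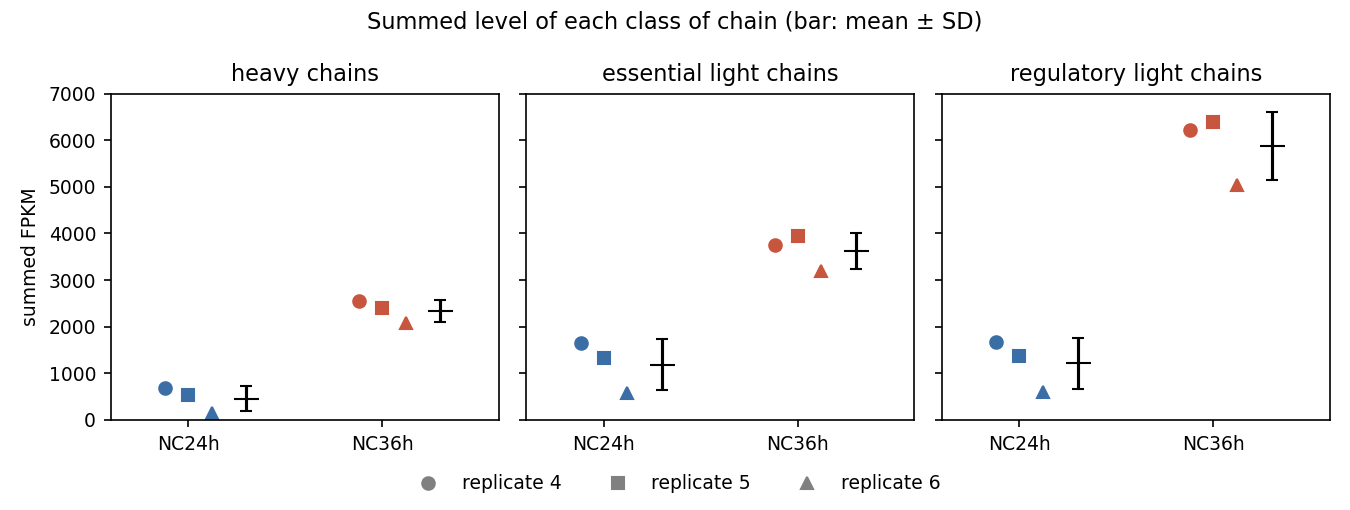
Summed FPKM of the member heavy chains, essential light chains and regulatory light chains in each library (common linear axis from 0, one point per library, bars mean and SD). Essential and regulatory light chains are at similar levels in NC24h, and regulatory light chains are higher in each NC36h library.

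Summed over the members, regulatory to essential light chain FPKM was 1.03 ± 0.0213 in NC24h and 1.62 ± 0.0432 in NC36h (SD, n = 3 each). Essential light chain FPKM was 2.39, 2.52 and 3.76 times that of the heavy chains in NC24h replicates 4, 5 and 6 and 1.47, 1.65 and 1.54 times in NC36h. Regulatory light chain FPKM was 2.41, 2.59 and 3.95 times that of the heavy chains in NC24h and 2.44, 2.67 and 2.42 times in NC36h. The last ratio overlapped between the groups, and its only value above 2.67 was that of NC24h replicate 6. These sums lack the members and heavy chains that were not analysed here. The 8 genes together took between 0.187% and 0.675% of all counted fragments in NC24h and between 1.88% and 2.28% in NC36h.

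The order of the members by mean FPKM was the same at both times, MYLPF, MYL1, MYH3, MYL4, MYL5, MYH13, MYH8 and MYL3, with MYL5 and MYH13 level at 24 h (7.14 and 7.12). In NC36h no neighbours in this order overlapped in their libraries. In NC24h the libraries of MYLPF and MYL1 overlapped, as did those of MYL1 and MYH3, of MYL4 and MYL5 and of MYL5 and MYH13. Within each NC24h library MYLPF was above MYL1 and MYL1 above MYH3, while MYL5 was above MYH13 only in replicate 5.

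**Figure D4:**
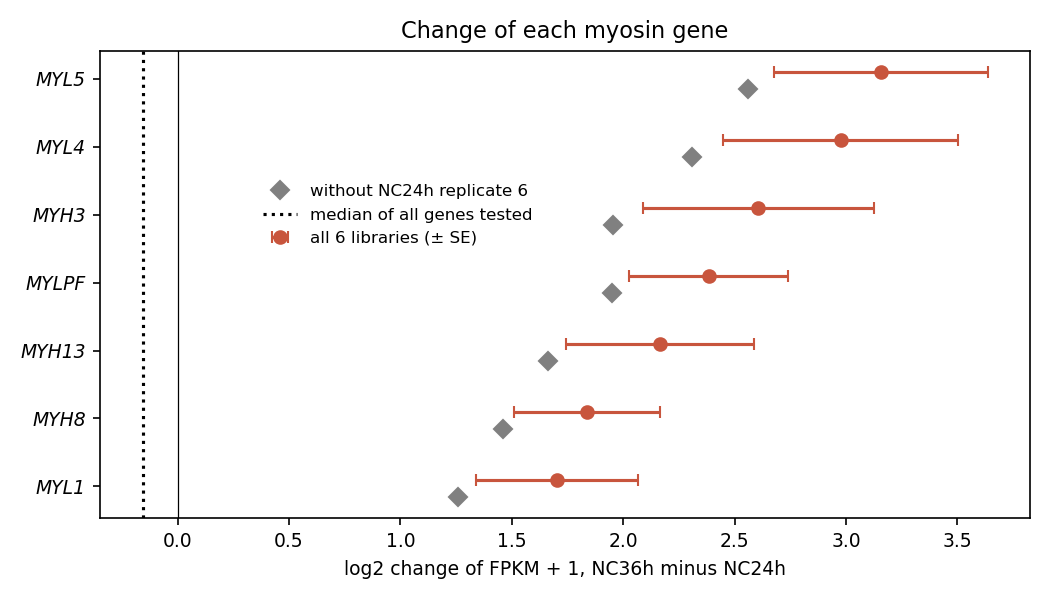
log2 change of FPKM + 1 between NC24h and NC36h for the 7 tested members, with all 6 libraries (red, ± standard error) and without NC24h replicate 6 (grey diamonds), beside 0 (solid line) and the median of all genes tested (dotted line at -0.16). The points run from 1.26 for MYL1 without that library to 3.16 for MYL5.

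Likeness to other genes was measured as the Euclidean distance between profiles of log2(FPKM + 1) over the 6 libraries, each centred on its mean, against 7880 tested genes with a symbol. It is a description, and part of each distance comes from the shared time points. Nearest to MYH3 were ACTA1 (skeletal muscle actin, distance 0.321), TMEM182 (0.353) and SHISA2 (0.387), where the median distance was 3.81. Nearest to MYL1 were PGAM2, the muscle phosphoglycerate mutase (0.192), MYOM2, an M-band protein (0.291), and BCAM (0.292). Nearest to MYL4 were MYH6 (0.331), MYBPH (0.520) and SHISA2 (0.532). Nearest to MYH8, on a scale that compresses its low values, were TNNI1, the slow troponin I (0.189), PGAM2 (0.224) and KCNA7 (0.256). Among the members on this scale, the distance was between 0.306 for MYH8 and MYL1, whose folds of means were 4.79 and 2.99, and 1.85 for MYL1 and MYL5.

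Of the other sarcomeric myosins, 4 of 8 listed genes had a row and 2 could be tested. MYH1, MYH2, MYH4 and MYL7 were not analysed here. MYH6, by its symbol the atrial heavy chain, had an FPKM of 17.4, 13.4 and 3.95 in NC24h and of 95.7, 91.4 and 87.3 in NC36h. These groups did not overlap either, and the change was 3.08 ± 0.45 on the log2 scale (standard error, limma adjusted p = 0.00250). It stood at between 2.57% and 2.61% of the FPKM of MYH3 in NC24h and between 3.83% and 4.25% in NC36h (log2 difference 0.62 without a pseudocount and 0.47 with a pseudocount of 1, exact permutation p = 0.1 for both). Its model spans 2030 bases, less than that of MYH3, and MYH6 is a close copy and neighbour of MYH7, which was not analysed here, so fragments may be shared between them. MYH7B, a slow-type heavy chain gene, stood at 4.90 ± 0.853 and 6.59 ± 0.901 FPKM (SD, n = 3 each, limma adjusted p = 0.0665), and it passed the threshold when libraries were scaled by their median ratio (adjusted p = 0.0300). MYH15 and MYL10 were under the FPKM minimum, with means of 0.192 and 0.758.

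The genes listed as non-muscle and smooth muscle myosin II moved in different directions, with 1 of 3 tested genes higher, 1 lower and 1 not called. Over all genes tested, 16.5% were called higher and 34.4% lower. Only 4 of the 9 listed genes had a row, and MYH10, MYL6, MYL6B, MYL9 and MYL12B were not analysed here. MYH9, a non-muscle heavy chain, fell from 247 ± 110 to 100.1 ± 4.45 FPKM (log2 change -1.21, limma adjusted p = 0.0109), and NC24h replicate 6 was its highest library at 373. MYH14, another non-muscle heavy chain, rose from 4.13 ± 0.783 to 8.76 ± 0.829 (log2 change 0.94, limma adjusted p = 0.00244). MYL12A, a non-muscle regulatory light chain, stood at 306 ± 24.8 and 287 ± 41.1 (limma adjusted p = 0.508), and the sign of its difference turned with median-ratio scaling. MYH11, the smooth muscle heavy chain, averaged 0.00847 FPKM in NC24h and was at 0 in NC36h.

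Of the folding and thick filament partners of myosin, 12 of 16 listed genes had a row and 8 were tested. Of these, 4 were higher, 1 lower and 3 not called, with a median log2 change of 0.68. Over all genes tested, 16.5% were called higher and 34.4% lower. MYBPH, a myosin-binding protein, rose from 65.2 ± 38.4 to 512 ± 87.4 FPKM (SD, n = 3 each, log2 change 3.17, limma adjusted p = 0.00310). UNC45B, the muscle myosin chaperone, and SMYD1, a methyltransferase needed for thick filament assembly, changed by 0.76 and 1.22 on the log2 scale (limma adjusted p = 0.00669 and 0.0101). MYOM2, of the M-band, changed by 1.65 (limma adjusted p = 0.0164), while MYOM1, also of the M-band, stood at 163 ± 23.2 and 179 ± 26.3 FPKM (limma adjusted p = 0.474). The general myosin chaperone UNC45A, named after its values were seen, fell from 40.5 ± 1.30 to 31.1 ± 1.25 FPKM (log2 change -0.37, limma adjusted p = 0.00352), and this call was lost with median-ratio scaling (adjusted p = 0.0569). Without NC24h replicate 6, 5 genes were higher and 2 lower.

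The enzymes that act on regulatory light chains did not move together, with 2 of 6 tested genes higher and 3 lower. Over all genes tested the shares were 16.5% and 34.4%, and 7 of the 10 listed enzyme genes had a row. PPP1R12B and PPP1R12C, targeting subunits of myosin phosphatase, rose by 1.46 and 0.44 on the log2 scale (limma adjusted p = 0.00208 and 0.0141). PPP1CB, its catalytic subunit, and the kinases ROCK1 and ROCK2 fell by 0.22, 0.37 and 0.59 (limma adjusted p = 0.0361, 0.00634 and 0.00255), and the call of PPP1CB was lost with median-ratio scaling (adjusted p = 0.686). MYLK, a light chain kinase named after its values were seen, stood at 1.70 ± 1.30 and 0.390 ± 0.143 FPKM (SD, n = 3 each, limma adjusted p = 0.0629). MYLK2, another light chain kinase, was too low to be tested and averaged 0.0317 FPKM in NC24h and 0.0938 in NC36h. MYLK3 and MYLK4 were not analysed here.

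Fibre-type partners outside the myosins were called higher on the slow and on the fast side, where 16.5% of all genes tested were. TPM3, ATP2A2, MYOZ2 and CASQ2 of the slow list and TNNT3, TNNI2 and ACTN3 of the fast list were not analysed here. All 4 tested genes of the slow list rose, TNNT1, TNNI1 and TNNC1 (slow troponins) by 0.89, 1.89 and 2.34 and CA3 by 1.43 on the log2 scale (limma adjusted p from 0.000928 to 0.00268). All 5 tested genes of the fast list rose, TPM1 by 0.72, ATP2A1, the fast calcium pump, by 1.36, TNNC2, the fast troponin C, by 2.54, MYOZ1 by 1.15 and CASQ1 by 0.86 (limma adjusted p from 0.00392 to 0.0227). The fast gene PVALB was at 0 in all 6 libraries. The median log2 change was 1.66 for the slow list and 1.15 for the fast list, a description over few genes with no test of the difference. In level, the slow troponins TNNT1, TNNI1 and TNNC1 had mean FPKM of 2978, 2327 and 3712 in NC36h and the fast TNNC2 had 60.4 ± 34.2, while the fast troponins TNNT3 and TNNI2 were not analysed here. The lists did not divide by level, since TPM1 of the fast list stood at 3115 FPKM and CA3 of the slow list at 13.1. Among the member light chains with a row, the fast MYL1 and MYLPF were far above the slow MYL3, while the slow MYL2 was not analysed here.

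**Figure D5:**
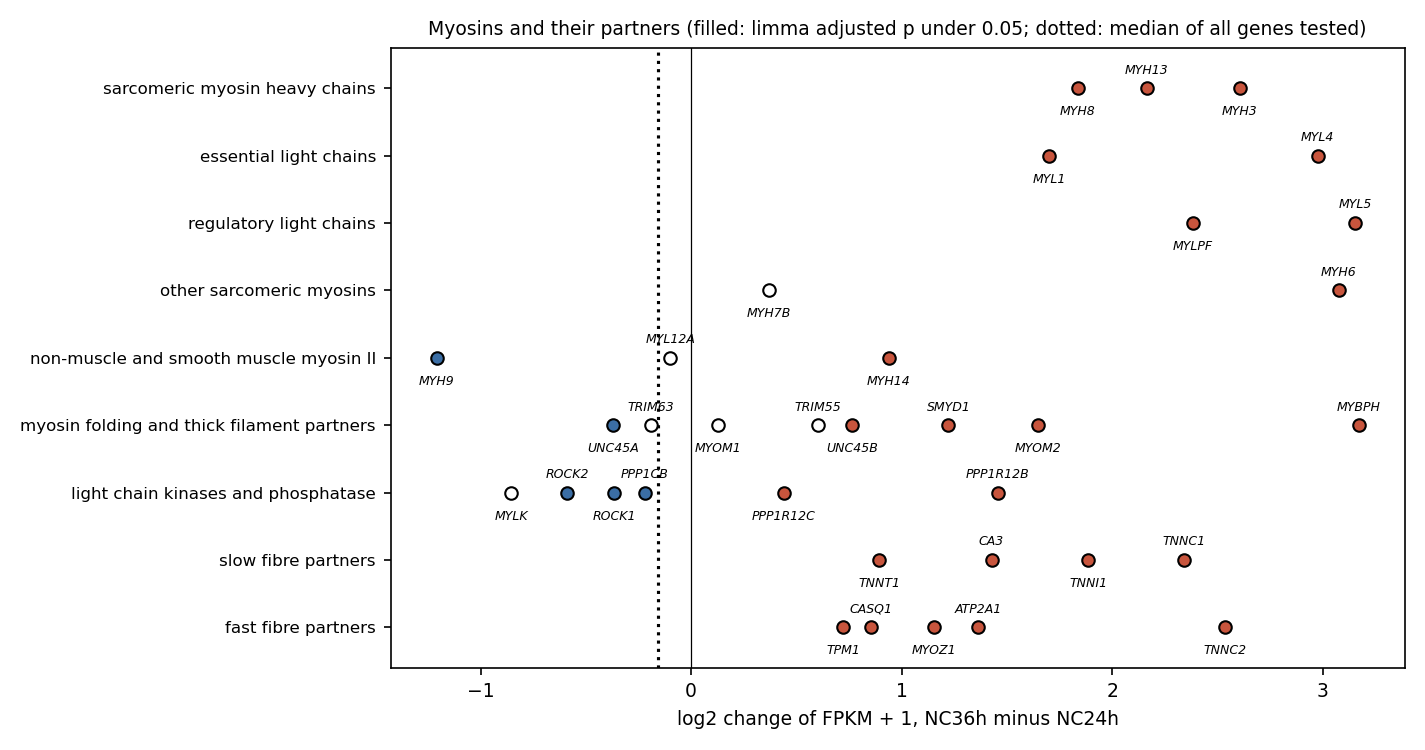
log2 change of FPKM + 1 between NC24h and NC36h of each tested gene of the myosin classes and partner lists (one circle per gene, red higher and blue lower with a limma adjusted p under 0.05, white not called), with the median of all genes tested as a dotted line. The 7 member genes lie between 1.70 and 3.16, and the non-muscle myosins and light chain enzymes lie on both sides of 0.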

How the data were processed

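Per the paper's methods, HISAT2 mapped the reads to Sscrofa11.1, StringTie assembled transcripts and HTSeq counted. The submitters' processing notes name TopHat2, Cufflinks and HTSeq. Strandedness is not given in the sources used here. The authors deposited FPKM values, one column per library, none pooled, and 0 sample columns were left unused.

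Symbols were paired with 11804 of 25322 Ensembl identifiers. Coordinates come from the RefSeq annotation of that build. Whole fragments were recovered from the FPKM steps for each of 19543 genes detected in 3 or more libraries (within 0.02 of a whole number). Linear models of log2(FPKM + 1) used limma 3.58.1 under R 4.3.3 (eBayes with trend, two-sided). The fit was checked on simulated data in which libraries varied independently and few genes changed. That check does not cover a library that deviates in many genes together. The study's own test was not run. Isoform ratios were compared by exact permutation tests. Pairs with MYH7 or MYL2, promoter motifs and, since MYL3 was at 0, its ratios were not analysed here. Pairs with MYH13 and MYH6 were added after the values were seen.

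The members, lists and tests were chosen with earlier results of these data known. Named genes are the members, up to 5 per list with the highest mean FPKM, and the 3 nearest profiles of MYH3, MYH8, MYL1 and MYL4. Alternatives were a pseudocount of 0.1 or none, other FPKM minimums, scaling by median ratios, quantile normalization, no eBayes trend, voom on fragments, a replicate block and leaving out each library.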

Additional observations from a re-analysis of the deposited data

How the results depend on the processing

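All 7 tested members stayed higher and past the threshold in each of the 104 alternative values computed for them, with log2 changes from 1.26 to 3.46 and limma adjusted p from 0.000370 to 0.0366. With no filter on low values MYL3 was also called, for 8 members. It enters that fit only through its NC36h values, so its call is not counted as support. With a mean FPKM of at least 5 MYH8 was not tested, for 6. Leaving out each library in turn gave 7 each time, and all genes past the threshold ranged from 4889 to 7336 around 7156. The voom test on recovered fragments called 7242 genes. Median-ratio scaling moved the share of higher calls among the genes called from 32.4% to 51.9% and the median change of all genes from -0.16 to -0.003. Of the 14060 genes tested, 2322 were called higher before and 3365 after that scaling. The 16.5% set beside the members is therefore larger with it. The deviations of same-numbered libraries of the groups had r across genes of 0.15, -0.02 and 0.18 for numbers 4, 5 and 6. Differently numbered libraries had r from -0.20 to 0.10. These r are over all genes tested rather than over the members, and the libraries are treated as unpaired. The replicate block gave 7034 genes and 7 members, and with it the ratio tests could not go below 0.25. It also gave smaller standard errors for all 7 members, for example 0.17 against 0.33 for MYH8 and 0.46 against 0.53 for MYL4. Whether same-numbered libraries share a source is not given in the sources used here.

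The ratio tests cannot pass the threshold with 3 libraries per group. MYH8 to MYH3 depended on the pseudocount, with a log2 difference of -0.77 at 1 and -0.07 without one, and MYH13 to MYH3 with -0.44 and -0.23. MYH13 to MYH8 was 0.33 at 1 and turned to -0.077 at 0.1 and to -0.16 without one, because the added 1 lifts the low MYH8 values. Without one library each and with a pseudocount of 1, the log2 differences ranged from -0.94 to -0.49 for MYH8 to MYH3, 1.05 to 1.42 for MYL4 to MYL1, 0.61 to 0.92 for MYL5 to MYLPF, -0.69 to -0.67 for MYL1 to MYLPF, 0.26 to 0.46 for MYL4 to MYH3, -0.52 to -0.29 for MYH13 to MYH3, 0.20 to 0.43 for MYH13 to MYH8 and 0.42 to 0.55 for MYH6 to MYH3. Depth limits MYL3 most, with 50 fragments in all.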
